A study of Mus musculus with 4 samples.

Results

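Replication-dependent histone genes encode the core histones H2A, H2B, H3 and H4 and the linker histone H1. They are short, mostly lack introns and sit in clusters. They are transcribed mainly in S phase, when new nucleosomes have to be built on copied DNA. NPAT and FLASH (Casp8ap2) gather at the clusters in the histone locus body, and the transcripts end in a stem-loop bound by SLBP in place of a poly(A) tail. The genes were taken as every protein-coding gene of GENCODE M21 on mm10 whose symbol starts with Hist1h, Hist2h, Hist3h or Hist4h, which gave 67 of 21951 protein-coding genes. Of these, 54 lie in Hist1 on chromosome 13, 10 in Hist2 on chromosome 3, 2 in Hist3 on chromosome 11 and 1 in Hist4 on chromosome 6. By family there were 6 H1, 18 H2A, 18 H2B, 12 H3 and 13 H4 genes. Their median length was 539 bp (range 312 to 37455), against 17528 bp for the other protein-coding genes.

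RNA polymerase II (Pol II) ChIP-seq, which finds where the enzyme sits on chromatin, was performed on flow-sorted brain endothelial cells (ECs), 200000 per preparation according to the methods. There were 2 libraries of old WT Cre mice (20 to 23 months in the study) and 2 of young EC-K4KO mice (4 to 6 months), in which Klf4, a transcription factor gene, is floxed and deleted by a Cre driven from the Cdh5 (VE-cadherin) promoter. The WT Cre controls carry the same CreERT2 and all mice received tamoxifen, at 8 weeks of age in the study, and the sexes and the number of mice in each library are not given in the sources used here. No library of young WT Cre or old EC-K4KO mice was analysed here, so age and genotype cannot be told apart. At Klf4 itself, old WT Cre replicate 1 had 1 peak within 1500 bp of the gene, old replicate 2 had 0, young EC-K4KO replicate 1 had 1 and young replicate 2 had 3, and such peaks do not measure the deletion.

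The lists differed in size. Old WT Cre replicates 1 and 2 held 78851 and 39674 peaks from 65734178 and 27455452 fragments. Young EC-K4KO replicates 1 and 2 held 35638 and 235591 peaks from 35227929 and 22705175 fragments, so the library with the fewest fragments had the longest list. Of 12 endothelial markers fixed for the check, 11, 10, 7 and 11 had a peak in the same order, and Cdh5, Pecam1, Kdr, Flt1, Tek, Ocln and Abcb1a had one in all 4 libraries. Cldn5, a tight junction gene of brain ECs and a short one, had a peak in young replicate 2 alone, Tie1 in old replicate 1 and young replicate 2, and Slco1a4 in the old libraries only. Other genes of the same lengths had a peak in 77.1, 65.2, 49.3 and 94.7%, against 91.7, 83.3, 58.3 and 91.7% of the markers, so the markers were above them in 3 libraries and below them in young replicate 2. For markers of other cells the counts were 4, 2, 4 and 4 of 4 neuron markers, 4, 2, 2 and 5 of 5 microglia markers, 3, 2, 2 and 5 of 5 mural markers, 4, 0, 1 and 4 of 4 astrocyte markers, 2, 3, 0 and 4 of 4 oligodendrocyte markers, and 0, 0, 1 and 3 of 4 neutrophil markers, of which Retnlg had none in any library. Other genes of the lengths of these 6 lists had a peak in 26.8 to 79.8, 19.8 to 73.96, 11.7 to 67.3 and 68.1 to 94.7% in the 4 libraries. The part of such cells in the histone peaks was not tested.

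The stem-loop, which marks a transcript of this class, was found on the sense strand of 65 of the 67 genes. It was sought as 16 bases, a stem of 6 and a loop of 4, over the gene and 150 bp past its end. In 39 genes it lay within 150 bp of the annotated end. In the other 26 the annotation ran further, as at Hist1h1c, where the gene ended 840 bp past it. The commonest form stood in 40 genes, the next in 9 and the third in 8. They are shown 5′ to 3′ with the stem in capitals, from Hist1h2ad (mm10 chr13:23574895-23574910, plus strand), Hist2h2ab (chr3:96220333-96220348, plus strand) and Hist1h4k (chr13:21750150-21750165, minus strand).
Hist1h2ad: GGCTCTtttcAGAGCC
Hist2h2ab: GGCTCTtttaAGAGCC
Hist1h4k: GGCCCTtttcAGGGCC
No match was found in Hist2h2be and Hist1h2an.

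Many H2A and H2B genes are arranged head to head around a shared promoter. There were 13 such divergent pairs, 12 of them H2A with H2B, and their start sites lay 176 to 660 bp apart (median 268). The interval of Hist1h2bf and Hist1h2ad, 184 bp at mm10 chr13:23574197-23574380 on the plus strand, is shown because it adjoins Hist1h2bf, whose peak covered the same position in all 4 libraries; 3 other pairs also had a peak near either gene in every library. Capitals mark CCAAT, the site of the factor NF-Y, on either strand.
Hist1h2bf/Hist1h2ad: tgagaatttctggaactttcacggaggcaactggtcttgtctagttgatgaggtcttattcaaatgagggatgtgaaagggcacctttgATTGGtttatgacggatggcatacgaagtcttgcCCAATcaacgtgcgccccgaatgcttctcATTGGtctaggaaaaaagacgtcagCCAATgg
All 13 intervals held 2 to 5 matches to CCAAT. In the 300 bases from 250 before to 50 after the start site, CCAAT stood in 56 of 67 histone promoters (83.6%) and in 39.0% of 21938 protein-coding promoters. By family it was in 18 of 18 H2A, 18 of 18 H2B, 11 of 12 H3 and 5 of 6 H1 promoters, but in only 4 of 13 H4 promoters. The TATA box (TATAAA) was found in 37 (55.2%, against 12.6%) and the octamer ATTTGCAT, the site of Oct factors, in 15 (22.4%, against 1.57%). All 15 octamers were at H2A or H2B genes, 7 and 8 respectively. The GC box (GGGCGG) was about as frequent in the histone promoters (41.8%) as in all promoters (43.0%). It stood in 10 of 13 H4, 4 of 6 H1, 7 of 18 H2A, 5 of 18 H2B and 2 of 12 H3 promoters. The AC box of H1 genes (AAACACA) was in 4 of 6 H1 promoters and 5 of the other 61. All were sought on both strands.

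Pol II peaks lay near most histone genes in 3 of the 4 libraries. In old WT Cre replicate 1, 51 of 67 genes (76.1%, 95% exact binomial interval 64.1 to 85.7, counting error only) had a peak overlapping the gene or 1500 bp on either side. Old replicate 2 had 41 (61.2%, 48.5 to 72.9). Young EC-K4KO replicate 1 had 17 (25.4%, 15.5 to 37.5) and young replicate 2 had 64 (95.5%, 87.5 to 99.1). Thus the highest and the lowest library were both young, and the old libraries lay between them. Over all protein-coding genes the same rule called 59.5, 48.1, 34.0 and 87.2%, in the same order. The mean histone share of the old WT Cre libraries was 68.7% ± 10.6 and that of the young EC-K4KO libraries 60.4% ± 49.6 (SD, n = 2), and the difference of -8.21 points was smaller than the spread between the young replicates (exact permutation test, two-sided, p = 1; the smallest p that 2 against 2 libraries allow is 0.333). Without young replicate 1, the difference was 26.9 points, with young EC-K4KO the higher.

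A longer gene has more room for a peak, so the shares were set beside those of other genes averaged over length bins with the histone genes as weights. This length-standardised share was 22.4, 15.96, 10.6 and 49.6% in the same order of libraries. The histone genes were above it by 53.8, 45.2, 14.8 and 45.9 points, or 3.41, 3.83, 2.40 and 1.92 times. The excess averaged 49.5 points ± 6.03 over the old WT Cre libraries and 30.3 ± 22.0 over the young EC-K4KO libraries (SD, n = 2; exact permutation test, two-sided, p = 0.667). Among 1898 other genes between the 10th and 90th percentile of histone gene length, 21.7, 17.0, 9.80 and 58.0% had a peak. The 49 other protein-coding genes inside the Hist1 and Hist2 spans had peaks in 30.6, 24.5, 32.7 and 71.4%. Against these neighbours the histone genes were higher in 3 libraries and lower in young replicate 1, where the difference was -7.28 points. Standardised also for the GC content of the first 300 bp of the gene, an alternative added after seeing the data, the other genes reached 35.5, 28.0, 22.3 and 71.6% and the excess was 40.6, 33.2, 3.06 and 23.9 points. The median GC of that stretch was 62.3% in histone genes and 53.3% in the genes of like length.

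**Figure D1:**
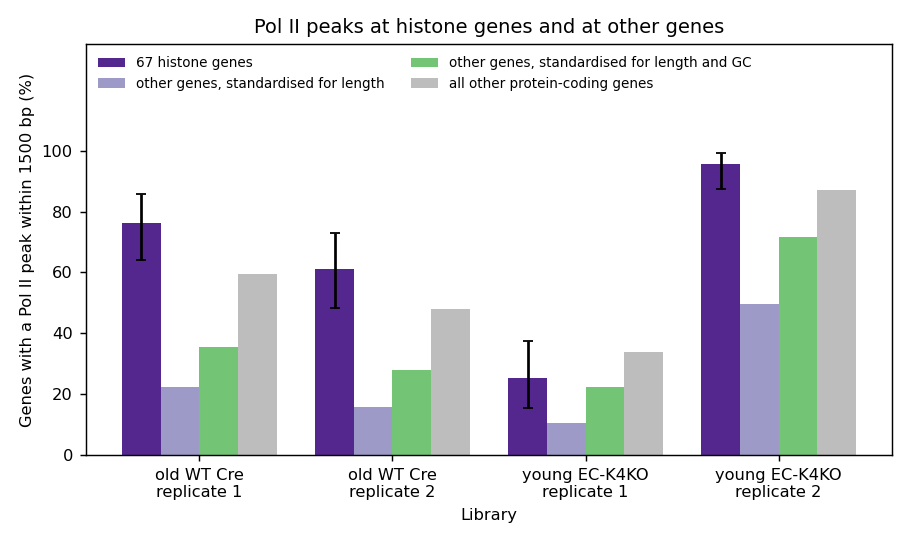
Percentage of genes with a Pol II peak within 1500 bp in each of the 4 libraries, for the 67 histone genes (purple, bars with 95% exact binomial intervals) and for other genes under 3 ways of counting. With all peaks counted, histone genes stand at 76.1, 61.2, 25.4 and 95.5%, above the length-standardised share of other genes in every library. Without histone peaks that have over 50% of their 31-mers elsewhere (not drawn), they stand at 16.4, 19.4, 11.9 and 34.3%. That is below the length-standardised share in old WT Cre replicate 1 and young EC-K4KO replicate 2.

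Neighbouring genes share peaks, so the distinct peaks were counted as well. Joined where they overlapped, the 67 windows formed 30 loci with up to 5 genes, 8 of them with 1 gene, over 231.94 kb. Old WT Cre replicates 1 and 2 held 41 and 33 distinct peaks there; young EC-K4KO replicates 1 and 2 held 10 and 65. Of these, 28, 20, 6 and 48 touched the windows of 2 or more histone genes. The densities were 17.7, 14.2, 4.31 and 28.0 peaks per 100 kb, against 5.62, 4.47, 2.38 and 19.2 around genes of like length. The exact Poisson intervals (95%, counting error only) were 12.7 to 24.0, 9.79 to 19.98, 2.07 to 7.93 and 21.6 to 35.7 for the histone windows. In young replicate 1 this interval takes in the density at genes of like length, so the difference was not detectable at 10 peaks. By locus, 22, 22, 10 and 28 of 30 had a peak (73.3, 73.3, 33.3 and 93.3%), so the old libraries were equal on that count. The length-standardised shares of other genes were 29.8, 22.1, 13.1 and 69.0%. The loci were above these by 43.5, 51.3, 20.2 and 24.3 points. With every list limited to its 35638 peaks of lowest q, 37, 40, 17 and 42 histone genes had a peak (55.2, 59.7, 25.4 and 62.7%). The length-standardised shares of other genes were then 8.93, 15.3, 10.6 and 19.3%. The excess was 46.3, 44.4, 14.8 and 43.4 points, so young replicate 1 alone stood apart.

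Peaks were found in every family. In old WT Cre replicates 1 and 2, peaks lay near 6 and 5 of 6 H1 genes, 12 and 11 of 18 H2A, 13 and 11 of 18 H2B, 9 and 6 of 12 H3, and 11 and 8 of 13 H4 genes. In young EC-K4KO replicate 1 the counts were 1 H1, 6 H2A, 3 H2B, 4 H3 and 3 H4 genes. In young replicate 2 every H1, H2A and H3 gene, 17 H2B and 11 H4 genes had a peak. The clusters differed by library: Hist1 had peaks at 45, 31, 12 and 53 of 54 genes and Hist2 at 6, 8, 5 and 9 of 10. In old replicate 1 the Hist1 share was the higher, and in old replicate 2 the Hist2 share, and the young replicates likewise gave opposite orders, with Hist2 the higher in replicate 1 and Hist1 in replicate 2.

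Every histone gene had a peak in at least 1 library, while 9.83% of all protein-coding genes had none. The exact binomial bound for 0 of 67 is 5.36% (counting error only). It takes the genes as independent, though neighbours share peaks and the 67 genes form 30 loci, so no conclusion is drawn from it. Both old libraries had a peak at 30 genes (44.8%; 38.6% of all genes), and both young libraries at 17 (25.4%; 33.0% of all genes). All 17 genes of young replicate 1 were among the 64 of young replicate 2, and all 17 had a peak in at least 1 old library, as did 62 of all 67 (92.5%, against 69.0% of all genes). Over all protein-coding genes, 7240 of the 7460 with a peak in young replicate 1 also had one in young replicate 2. Peaks in all 4 libraries were found at 12 genes (17.9%), against 21.8% of all genes and 2.53% after standardising for length. These 12 were Hist1h2ai, Hist1h3h, Hist1h2bf, Hist1h2ad, Hist1h2ac, Hist1h1c, Hist1h4b, Hist1h4a and Hist1h3a in Hist1 and Hist2h2be, Hist2h2aa1 and Hist2h3c1 in Hist2, and they cover all 5 families.

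**Figure D2:**
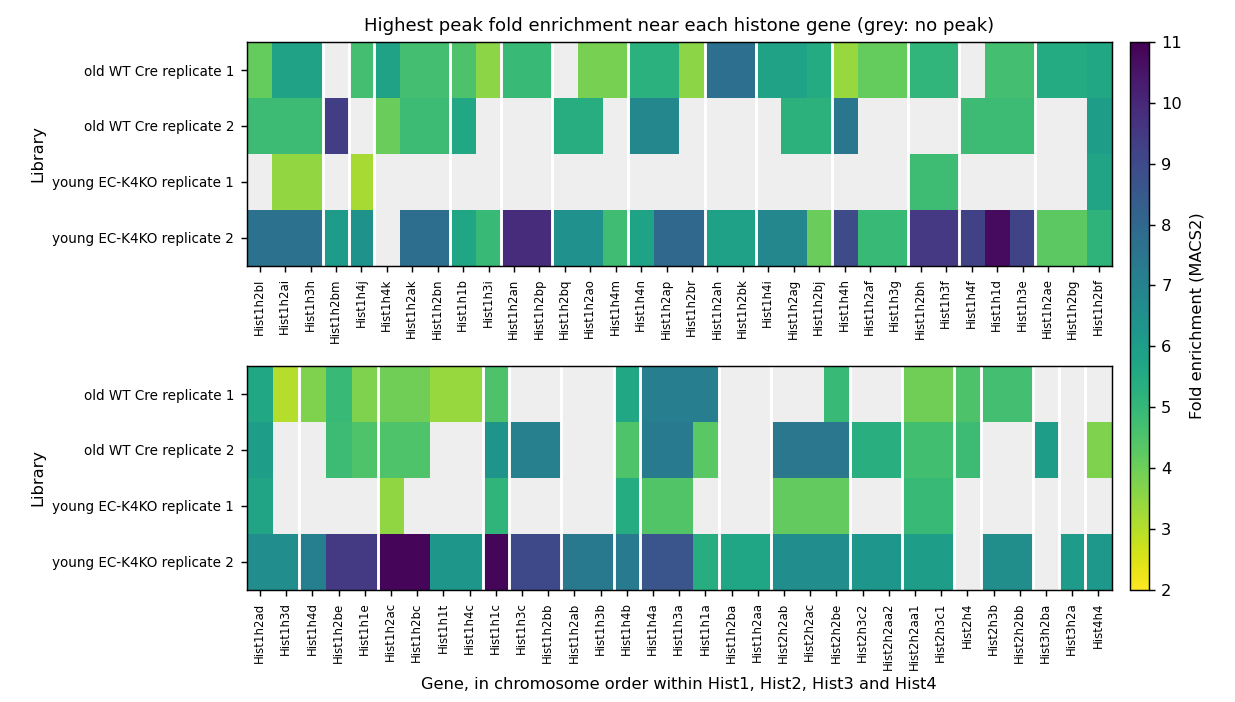
Highest MACS2 fold enrichment among the peaks near each histone gene (colour, 2 to 11; grey where no peak was called), with genes in chromosome order and white lines between loci. Young EC-K4KO replicate 1 is grey at 50 of 67 genes and young EC-K4KO replicate 2 at 3.

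The sharing of peak positions was counted apart from that of genes. The histone peaks of all libraries merged into 82 regions, of which 2 were covered in all 4 libraries, 14 in 3, 31 in 2 and 35 in 1, and 22 of the 35 belonged to young EC-K4KO replicate 2. Over the whole lists, merged in the same way, 87.3% of 334827 regions were covered in 1 library and 0.69% in all 4. Old WT Cre replicates 1 and 2 shared 17 regions, 42.5% and 53.1% of their own. Each shared more with the longest list, that of young replicate 2: 30 of the 40 regions of old replicate 1 (75.0%) and 25 of the 32 of old replicate 2 (78.1%). Young replicate 1 shared 6 of its 10 regions with young replicate 2 (9.23% of the latter's 65). Over the whole lists the old replicates shared 13.4% and 26.9% of their regions with each other and 25.9% and 37.1% with young replicate 2, and young replicate 1 shared 29.98% of its regions with young replicate 2. The regions of all 4 libraries lay in Hist1h2bf, an H2B gene, and in Hist1h1c, which encodes the linker histone H1.2.

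At Hist1h2bf (minus strand, chr13:23573736-23574196) the peak had a fold enrichment over the local background of 5.63 in old WT Cre replicate 1 and 5.96 in old replicate 2. The young EC-K4KO libraries gave 5.74 (replicate 1) and 4.86 (replicate 2). The 4 values lay between 4.86 and 5.96, and the groups overlapped. All libraries had 291 bp in common, all inside the coding sequence. At Hist1h1c (plus strand, chr13:23738808-23740367) the highest fold was 4.51 and 6.34 in the old replicates and 5.10 and 10.8 in the young, and the common stretch was 54 bp, also coding. Here young replicate 2 was the highest, with a peak 954 bp wide. Both stretches are shown on the sense strand, with capitals for bases that lie in a 31-mer occurring elsewhere in the mm10 chromosomes.
Hist1h2bf, chr13:23573827-23574117: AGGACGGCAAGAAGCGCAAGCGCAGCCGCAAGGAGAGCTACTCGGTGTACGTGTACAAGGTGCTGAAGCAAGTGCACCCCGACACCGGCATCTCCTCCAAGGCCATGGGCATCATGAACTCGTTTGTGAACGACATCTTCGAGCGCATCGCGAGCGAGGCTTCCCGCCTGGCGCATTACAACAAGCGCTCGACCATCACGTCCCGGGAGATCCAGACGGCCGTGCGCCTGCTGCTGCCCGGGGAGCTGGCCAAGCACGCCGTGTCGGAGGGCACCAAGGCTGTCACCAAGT
Hist1h1c, chr13:23739111-23739164: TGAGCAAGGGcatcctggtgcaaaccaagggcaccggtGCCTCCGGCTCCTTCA
All 291 bases of the Hist1h2bf stretch and 26 of 54 in Hist1h1c had such a copy.

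Repetition of this kind ran through the family, and histone genes of 1 type encode nearly the same protein. The copies were not confined to coding sequence. At Hist1h2bq and Hist1h2br, 100% of the 31-mers of the gene and of 1500 bp on either side had one. What produced the copies was not tested. Over the gene bodies the median share of 31-mers with a copy elsewhere was 55.02%, and 5 genes were copied throughout. Of the distinct histone peaks, 32 of 41, 22 of 33, 5 of 10 and 48 of 65 had more than 50% of their 31-mers elsewhere, and 18, 11, 2 and 27 had more than 50% of their 100-mers elsewhere, in the usual order of libraries. Counting only the peaks below that limit for 100-mers left 30, 24, 13 and 40 genes with a peak (44.8, 35.8, 19.4 and 59.7%), above the length-standardised share by 22.4, 19.9, 8.85 and 10.1 points. With the limit on 31-mers 11, 13, 8 and 23 genes were left, and the excess was -5.94, 3.44, 1.38 and -15.3 points. In both counts the other genes kept all their peaks. The methods give Bowtie2's very sensitive local options without a request for several alignments, and Bowtie2 then reports 1 placement for a read that matches several genes. Whether reads of low mapping quality were then discarded is stated for the study's ATAC-seq and not for these libraries. The part of this placement in which gene carries a peak was not tested. The median share of copied 31-mers was 55.2, 55.02, 49.1 and 55.1% in the genes with a peak and 51.1, 52.4, 56.0 and 27.3% in those without, of which young replicate 2 had 3.

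**Figure D3:**
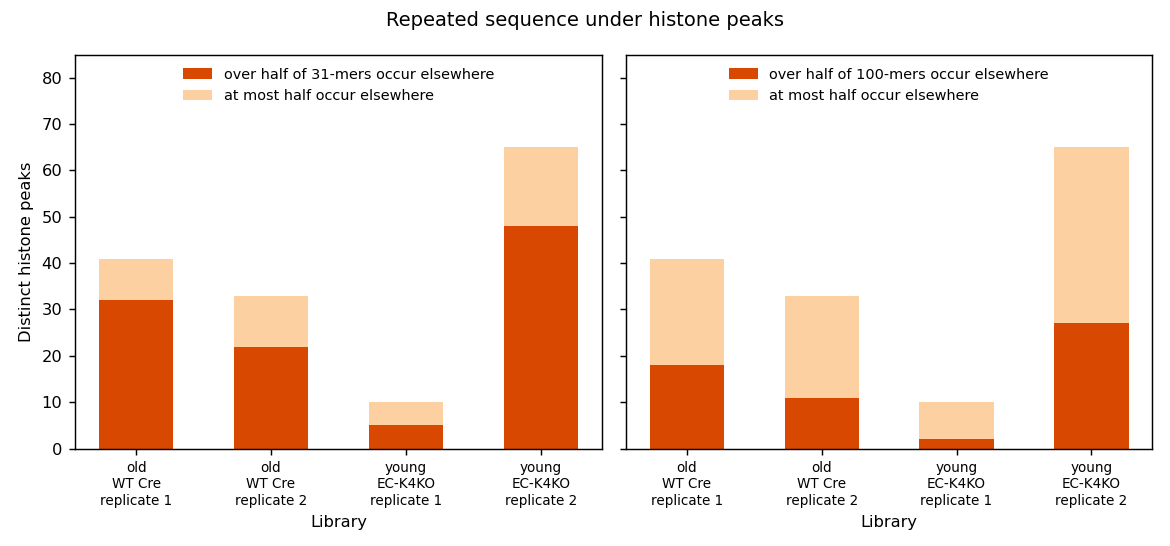
Number of distinct histone peaks in each library, split by whether more than 50% of their 31-mers (left) or 100-mers (right) occur elsewhere in the mm10 chromosomes. The repeated class holds 32, 22, 5 and 48 peaks for 31-mers and 18, 11, 2 and 27 for 100-mers.

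In the old WT Cre libraries and young EC-K4KO replicate 2, most peaks sat inside the genes and just past the start site. In young replicate 1, 5 of 10 summits lay between start site and stem-loop. The 4 peaks of that library without a copied 31-mer had summits at -1443, 1656, 1947 and -207 bp from the start site. Positions were counted over all peaks, those in copied sequence included. The median summit of old WT Cre replicates 1 and 2 lay 218 and 195 bp downstream of the nearest histone start site. That of the young EC-K4KO replicates lay 259 and 252 bp downstream. Summits were downstream in 40 of 41, 29 of 33, 7 of 10 and 59 of 65 peaks. Position by position, coverage was highest 150 bp past the start site in old replicate 1, where 41.8% of histone genes were inside a peak. It was highest at 200 bp in old replicate 2 (31.3%) and young replicate 2 (73.1%) and at 250 bp in young replicate 1 (5.97%). At the start site itself 10.4, 5.97, 0 and 16.4% of the genes were covered. In the old libraries and young replicate 2 the site lay on the rising side, since 150 bp upstream of it the coverage was 1.49, 1.49 and 2.99%. In young replicate 1 it was 2.99% there, or 2 genes. For genes of like length the highest coverage was 5.32, 5.32, 1.84 and 17.8%.

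A rise also stood upstream of the start site at the genes in divergent pairs. For the 26 genes in such pairs, the highest coverage between 700 and 300 bp upstream was 46.2% and 30.8% in the old libraries and 3.85% (1 gene) and 84.6% in the young. Downstream of their start sites it reached 46.2, 30.8, 3.85 and 88.5%, so the rise was as high on both sides in the old libraries and nearly so in young replicate 2, and in young replicate 1 there was none to compare. For the other 41 genes the highest upstream coverage was 2.44, 4.88, 2.44 and 7.32%, against 41.5, 34.1, 7.32 and 65.9% downstream. In 12 of the 13 pairs the start sites lay 176 to 306 bp apart, so the upstream stretch of 1 gene overlaps its partner. Those of Hist1h2bh and Hist1h3f lay 660 bp apart, and most of that stretch is the interval between them. The interval between the 2 start sites was touched by a peak in 4, 2, 0 and 3 of 13 pairs, whereas 12, 8, 5 and 13 pairs had a peak near either gene.

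**Figure D4:**
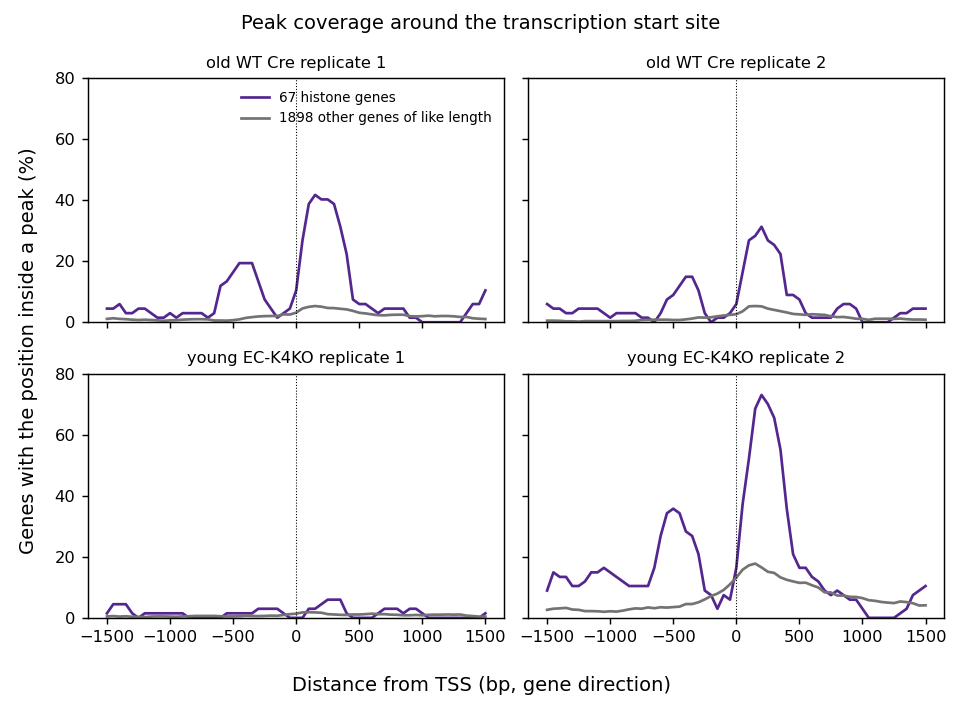
Percentage of genes whose position lies inside a Pol II peak, by distance from the start site in the direction of the gene (bp), for the 67 histone genes (purple) and 1898 other genes of like length (grey) in each library. Histone coverage reaches 41.8, 31.3, 5.97 and 73.1% between 150 and 250 bp past the start site and is lower at the site itself.

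Coverage was low past the stem-loop. In 63 genes the stem-loop ended within 1000 bp of the start site, at most 896 bp away. From the start site to the stem-loop, 33.5% and 21.8% of the bases were inside a peak in the old libraries and 3.76% and 55.9% in the young. In the 500 bp past the stem-loop the shares were 2.43, 2.68, 1.51 and 7.105%, and in the 500 bp before the start site 10.4, 6.56, 1.86 and 16.1%. The stretch between was the most covered in every library, though in young EC-K4KO replicate 1 it rested on 5 genes. Summits fell between start site and stem-loop for 38 of 41, 26 of 33, 5 of 10 and 55 of 65 peaks.

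**Figure D5:**
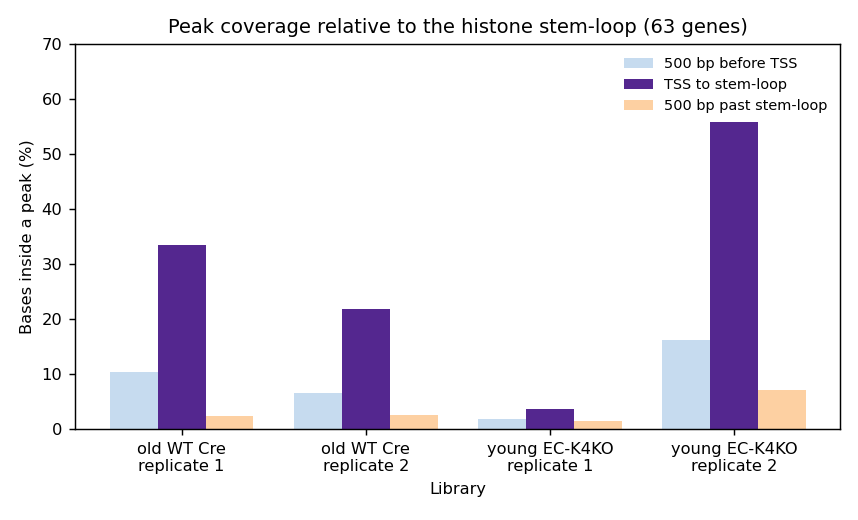
Percentage of bases inside a Pol II peak in the 500 bp before the start site, from the start site to the end of the stem-loop and in the 500 bp past it, for 63 histone genes in each library. The stretch up to the stem-loop is covered at 33.5, 21.8, 3.76 and 55.9%, and the stretch past it at 7.105% or less.

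In strength the median histone peak stood at the 73.0th, 46.5th, 64.4th and 74.7th percentile of fold enrichment in its list, and 10 of 41, 6 of 33, 1 of 10 and 17 of 65 were among the highest 10%. Their median fold enrichment was 4.51, 4.85, 4.61 and 6.05 in the usual order of libraries, against 3.94, 4.85, 4.16 and 4.79 over each whole list. The median histone peak was 306, 245, 175 and 303 bp wide, against 222, 203, 194 and 185 bp. Histone peaks were thus wider than the usual peak in 3 libraries and narrower in young replicate 1. In old replicate 1 the highest folds were 7.70 over Hist1h2ah and Hist1h2bk, 7.14 over Hist1h3a, Hist1h4a and Hist1h1a, and 5.82, a value that 3 peaks shared, at Hist1h3h and Hist1h2ai, at Hist1h4i and Hist1h2ag, and at Hist1h4k. In old replicate 2 they were 9.32 at Hist1h2bm, 7.46 at Hist1h4h and 7.45 over Hist2h2ab, Hist2h2ac and Hist2h2be. Young replicate 1 had 5.74 over Hist1h2bf and Hist1h2ad, 5.42 near Hist1h4b and 5.10 at Hist1h1c. Young replicate 2 had 10.9 over Hist1h2ac and Hist1h2bc, 10.8 at Hist1h1c and 10.7 at Hist1h1d. Hist1h1c was among the 3 highest in both young libraries, and no gene was so in both old libraries.

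Few genes could separate the groups under the rule of a peak in both libraries of a group and neither of the other, since young replicate 2 lacked a peak at only 3 histone genes and 62 of 67 had one in an old library. Both old libraries and neither young library had a peak at 2 genes (2.99%), Hist1h4k and Hist2h4, both of which encode H4; the same rule called 0.337% of all genes and 1.19% after standardising for length. At Hist1h4k the peaks overlapped, with fold 5.82 in the first old replicate and 4.05 in the other. At Hist2h4 they did not, since the summit lay 218 bp past the start site in old replicate 1 (fold 4.51) and 2960 bp past it in old replicate 2 (fold 4.85). No histone gene had a peak in both young libraries and neither old one, a pattern seen in 3.23% of all genes. Young EC-K4KO replicate 2, the longest list, alone had a peak at 5 genes (7.46%, against 17.3% of all genes): Hist3h2a, Hist1h2ab, Hist1h3b and the pair Hist1h2ba and Hist1h2aa, known as testis variants of H2B and H2A.

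The 3 genes outside the large clusters had 1 or 2 peaks each. Hist3h2ba had 1, in old WT Cre replicate 2 (fold 5.97), with the summit at -1445 bp from its start site. Hist3h2a had 1, in young EC-K4KO replicate 2 (fold 6.05). Hist4h4 had 1 in old replicate 2 (fold 3.73) and 1 in young replicate 2 (fold 6.21). None of the 3 genes had a peak in both libraries of a group.

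Genes for the factors that act on histone genes were counted in the same way, from lists fixed for this purpose. Of 16 genes of the histone locus body and of histone mRNA processing, 10, 9, 3 and 16 had a peak in the usual order (62.5, 56.2, 18.8 and 100%). Other genes of the same lengths reached 57.5, 43.6, 26.5 and 88.4%, so this list was below them in young replicate 1. Only Zfp473, whose product takes part in histone mRNA processing, had one in all 4 libraries, as did 21.8% of all genes. Npat, Casp8ap2, Slbp, Snrpb, Snrpd3, Cpsf2 and Cpsf3 had one in 3, as did 24.5% of other genes. Of 20 S phase and proliferation genes, 12, 12, 5 and 20 had a peak (60.0, 60.0, 25.0 and 100%), against 52.9, 39.7, 24.0 and 87.1% of other genes of the same lengths. Those with a peak in all 4 libraries were Mcm3, a subunit of the replicative helicase, and E2f3, an E2F factor, or 2 of 20, where 21.8% of all genes had one. Of 12 histone chaperone genes the counts were 9, 9, 2 and 12 (75.0, 75.0, 16.7 and 100%), against 69.2, 55.5, 38.2 and 93.6% of other genes of the same lengths, and the list was again lower in young replicate 1. Those in all 4 libraries were Hat1, which acetylates new H4, and Hira, an H3.3 chaperone. The histone genes listed as replication-independent, which mostly give polyadenylated transcripts and of which some, such as H2afx, lack introns, had a peak at 6, 6, 1 and 11 of 11, and H2afy (macroH2A1) had one in all 4. Their length-standardised shares were 44.2, 34.5, 20.98 and 79.0%, against 54.5, 54.5, 9.09 and 100% observed. Ribosomal protein genes, which are short and active in most cells, had a peak at 34.9, 39.8, 15.7 and 91.6% of 83, and olfactory receptor genes, which ECs are not known to use, at 12.2, 5.46, 9.52 and 38.6% of 1135. The histone share was above both in every library with all peaks counted. With the limit on 100-mers it was below that of ribosomal protein genes in old replicate 2 and young replicate 2. With the limit on 31-mers it was below that of ribosomal protein genes in all 4 libraries and below that of olfactory receptor genes in young replicate 2.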

How the data were processed

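Pol II ChIP-seq peak lists of 4 libraries (2 per group) were analysed. According to the methods, the authors used Bowtie2 on trimmed reads against mm10, discarded PCR duplicates and ran MACS2; the deposited lists name version 2.2.7.1, called per library with no control. Per the file headers, fragments were read as pairs, duplicates were kept at this step and the q threshold was 0.01. The methods name an earlier MACS2 version and default parameters, which these settings are not; the lists were used as deposited. The deposited fold enrichment is a ratio of summit pileup to local background, the deposited pileup is a signal of fragments not scaled between libraries, and the deposited p and q values are given as −log10. A peak list shows where a peak passed, not a level between libraries.

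Genes were GENCODE M21 protein-coding genes. A gene had a peak if 1 bp of a peak fell within 1500 bp of it. Length bins were 0.5 wide on the log2 scale and GC bins 10 percentage points. The genes, lists and motifs were chosen with earlier results of these data known. Genes were named if they had a peak in all 4 libraries, in both libraries of only 1 group or in none, lay under the 3 highest folds of a library, belonged to Hist3 or Hist4, or were list genes with a peak in all 4 libraries or none. Npat, Casp8ap2, Slbp, Snrpb, Snrpd3, Cpsf2, Cpsf3, Cldn5, Tie1, Slco1a4, H2afx, Hist1h2bq, Hist1h2br and the 5 genes of young replicate 2 alone were added after their values were seen. Of 18 listed histone locus body names, 16 were annotated. Promoters, stem-loops and k-mers were read from GRCm38.p6, the same assembly as mm10. Shares were compared over libraries by an exact permutation test (scipy 1.17.1), and the overlap code was tested on simulated data. The methods call the replicates biological; the number of animals behind each library is not given in the sources used here.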

Additional observations from a re-analysis of the deposited data

How the results depend on the processing

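The young minus old difference in the share of histone genes with a peak kept its direction in 11 of 15 alternatives. It was 1.49 points with peaks of q at most 1e-05, 0 with fold enrichment of at least 4, -13.4 with lists of equal length, 5.22 with histone peaks of which at most 50% of the 31-mers were copied, -0.75 with the same limit on 100-mers, and -43.3 to 26.9 when each library was left out. The share of genes with a peak in both old libraries (44.8%) was 17.9% at the stricter q, 61.2% with windows of 3000 bp, 10.4% with the limit on 31-mers and 16.4% with the limit on 100-mers. The share for both young libraries (25.4%) was 8.96% at the stricter q, 14.9% with windows of 500 bp, 8.96% with the limit on 31-mers and 16.4% with that on 100-mers. The excess over length-standardised genes averaged 49.5 points in old WT Cre. It was 37.8 at the stricter q, 14.9 against all other genes without standardisation, 41.1 against neighbours in the clusters, 36.9 with GC, 21.1 with the limit on 100-mers and -1.25 with the limit on 31-mers. The excess in young EC-K4KO (30.3 points) was -0.13 against all other genes, 8.41 against neighbours, 13.5 with GC, 9.45 with the limit on 100-mers and -6.97 with that on 31-mers. The density in old WT Cre (15.95 peaks per 100 kb) was 9.49 at the stricter q, 12.3 with fold of at least 4, 12.3 with lists of equal length, 22.0 and 12.2 with windows of 500 and 3000 bp, 24.4 around start sites, 24.5 for the 39 genes with a stem-loop near the gene end, 4.31 with the limit on 31-mers and 9.70 with the limit on 100-mers. The density in young EC-K4KO (16.2) was 8.84 with lists of equal length, 25.1 around start sites and for the 39 genes, 4.74 with the limit on 31-mers and 9.92 with that on 100-mers, all within the spread of its replicates (SD 16.8). By construction, the limits on copied k-mers remove histone peaks and leave those of other genes, a shorter window has fewer bases, and stricter thresholds leave fewer peaks; other causes were not tested. Leaving out a library gave an excess of 45.2 to 53.8 points in old and 14.8 to 45.9 in young, and densities of 14.2 to 17.7 and 4.31 to 28.0. The limits on k-mers and the GC setting were chosen after seeing the data.

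No paired analysis was possible because the result is 1 share per library, with no fit across features to hold a replicate block, and nothing in the labels ties a number to a shared day or animal. Shares in both libraries have no value with 1 library left out. With 2 libraries a group the smallest p of a comparison is 0.333. A gene without a peak is one where no peak passed the caller's threshold. The 10 histone peaks of young EC-K4KO replicate 1 limit every statement on that library.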
